A study of Mus musculus with 22 samples.

Results

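Accessible chromatin in a 2 Mb interval of distal mouse chromosome 4, from 145000000 to 147000000 (mm9), was described in retinal endothelial cells of 2 genotypes. The interval is the stretch known for its cluster of KRAB zinc finger genes. Its members are all ATAC-seq peaks whose midpoint lay within these bounds, 366 in the control list and 350 in the gTKO list, together 716 of 108489 deposited peaks (106825 of them on placed chromosomes). The interval was chosen by a measured value, its number of gTKO regions that overlap no control region. The one-list numbers below are therefore a description, and nothing is supported by them.

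ATAC-seq, in which a transposase cuts and tags open DNA, was carried out on endothelial cells that had been sorted from the retinas of C57BL/6 pups at postnatal day 6 (the cell type entry of the labels also calls them adult). Both genotypes were S1pr3-/- S1pr1flox/flox S1pr2flox/flox, so all pups lacked S1pr3, 1 of the receptors for the lipid mediator sphingosine 1-phosphate. The gTKO pups also carried Rosa26-CreERT2, a tamoxifen-dependent recombinase expressed from a locus active in most cell types and not in endothelium alone, and the control pups did not. Pups of both genotypes received 100 µg tamoxifen intraperitoneally from P1 to P3. Each genotype had 3 libraries, each from the pooled retinas of 4 to 6 pups and from 5000 to 8000 cells, and all 3 are represented by 1 peak list. The lists hold positions only, so there is no replicate error, no p-value between genotypes and no known read depth. Whether the cells carried endothelial markers, and whether S1pr1 and S1pr2 were deleted, was not checked here, because no annotation of mm9 was used.

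KRAB zinc finger proteins are a large family of vertebrate DNA-binding repressors. An array of zinc fingers reads the target sequence, and the KRAB domain recruits the corepressor TRIM28, which leads to heterochromatin. Many members bind retrotransposons and keep them silent. Their genes multiply by tandem duplication, so that neighbouring copies are alike, and mouse strains differ in their number. In RefSeq's gene order (GRCm38.p6), 82 genes lie between Tnfrsf8 and Miip, a receptor gene and a cell migration gene on either side of the cluster. Of these, 19 are protein coding, 56 are pseudogenes and 7 are long non-coding RNAs. A symbol of the form Zfp is carried by 16 of the 19 protein-coding genes: Zfp990, Zfp980, Zfp987, Zfp600, Zfp992, Zfp981, Zfp993, Zfp978, Zfp991, Zfp988, Zfp982, Zfp985, Zfp979, Zfp534, Zfp984 and Zfp933. Within 2 Mb on either side of this gene block RefSeq lists 131 genes, of which 0 carry such a symbol. In GRCm38 the upstream sequences of this block that are printed below run from 145585043 to 147809959, more than the 2 Mb of the interval. The gene block is thus not the content of the interval, and its sides are not the flanks used for the peaks. How the block divides between interval and flanks is not known. GRCm38 and mm9 number this chromosome differently, and positions were not converted. No region below is therefore assigned to a gene, and the label of the interval as a zinc finger cluster was not checked against the peak lists.

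The reference sequence upstream of these genes shows how alike the copies are. In the 250 bases before the annotated start, 16 of the 19 cluster genes with a sequence in the table (84.2%) shared a run of at least 50 identical bases with another gene's upstream sequence. These 19 genes are not the 19 protein-coding genes above, and 12 of them carry a Zfp symbol. The 16 include the long non-coding RNAs Gm13165, 1700095A21Rik, Gm30681 and 4933438K21Rik, which shared no such run with a gene of Zfp symbol. The same held for 16.9% of 89 genes within 2 Mb on either side, and for 8.03% of all 27025 genes. A run of 12 bases, GAAGCTAATTAA, was found on either strand upstream of 12 of the 19 cluster genes and of 13 genes (0.0481%) in all. It was 1 of 4 runs of this length that were held by as many cluster genes. The run was picked because no other was held by more cluster genes, so its high count among them follows from the choice. Aligned on it without gaps, the 100-base windows of 11 genes were 85 to 100% identical (median 90.0%, 55 pairs). The window of Zfp981 fell out of register and was left out of these pairs, for its low identity to the most frequent letters (53.0%).

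The windows of 7 genes are printed 5′ to 3′ on the gene's strand, from RefSeq in GRCm38.p6, to let these copies be compared by eye. Capitals mark letters that differ from the most frequent letter at that place among the 12 windows. Zfp600 lies at chr4:146156675-146156774 (plus strand), Rex2 at chr4:147021698-147021797 (plus), Zfp979 at chr4:147642567-147642666 (minus), Zfp987 at chr4:146097144-146097243 (plus), Zfp534 at chr4:147702655-147702754 (minus), Gm13212 at chr4:145585043-145585142 (plus) and Zfp984 at chr4:147809860-147809959 (minus).
Zfp600: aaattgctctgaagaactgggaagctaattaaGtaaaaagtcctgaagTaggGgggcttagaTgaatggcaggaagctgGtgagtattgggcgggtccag
Rex2: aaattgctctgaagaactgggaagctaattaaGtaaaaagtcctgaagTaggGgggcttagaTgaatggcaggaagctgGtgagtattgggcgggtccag
Zfp979: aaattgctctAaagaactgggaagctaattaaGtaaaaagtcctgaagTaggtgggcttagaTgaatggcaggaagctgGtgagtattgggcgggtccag
Zfp987: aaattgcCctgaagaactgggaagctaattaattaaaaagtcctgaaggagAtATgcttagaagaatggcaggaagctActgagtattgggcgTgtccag
Zfp534: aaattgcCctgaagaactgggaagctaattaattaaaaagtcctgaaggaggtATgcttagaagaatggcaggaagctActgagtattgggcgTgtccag
Gm13212: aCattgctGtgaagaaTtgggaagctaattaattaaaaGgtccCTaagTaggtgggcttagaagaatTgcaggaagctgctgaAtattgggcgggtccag
Zfp984: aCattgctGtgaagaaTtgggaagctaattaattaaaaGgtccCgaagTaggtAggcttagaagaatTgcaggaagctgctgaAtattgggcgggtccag
Zfp600 and Rex2 were identical over the window, Zfp979 shared most of their capitals, and Zfp987 and Zfp534 formed a further group. The peak lists give no sequence, and whether a peak lay at any of these promoters is not known. The handling of reads that fit several copies is not described in the labels, and the part of such reads in the values below was not tested.

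Regions were far denser in the interval than beside it, in both genotypes. The control list held 183 regions per Mb in the interval, 19.5 per Mb in the left flank and 57.0 per Mb in the right flank, with flanks of 2 Mb. The gTKO list held 175, 18.5 and 43.5 per Mb. The density was thus 4.78 times (95% interval 3.95 to 5.82) that of both flanks in the control list and 5.65 times (4.59 to 6.99) in the gTKO list. In the left flank, the 1.48 Mb from 143003086 to 144480548 held no region of either list. Against the right flank alone the ratios were 3.21 and 4.02, and with regions of at least 300 bp alone, against both flanks, 2.74 and 3.4. All intervals in the text are exact (shares by Clopper-Pearson, medians by order statistics). They cover counting error only and treat regions as independent.

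Set beside all 1300 windows of the same length on the placed chromosomes, the interval had the most gTKO regions (350, next 283, median 29.0) and the second most control regions (366, against 372 in the highest, median 33.0). The regions were not spread evenly. Of 20 bins of 100 kb, each held 2 to 61 control regions (median 12.5) and 4 to 62 gTKO regions (median 11), and none was empty. The 3 fullest bins held 40.7% of the control and 41.1% of the gTKO regions. In the flanks, 14 of 40 bins were empty in both lists and the fullest held 16 control and 13 gTKO regions. Of the 20 bins of the interval, 14 in the control list and 13 in the gTKO list did not exceed these flank values. The median flank bin, however, held 3.00 control and 2.50 gTKO regions, fewer than the median bin of the interval. The higher density was thus not confined to the fullest bins.

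**Figure D1:**
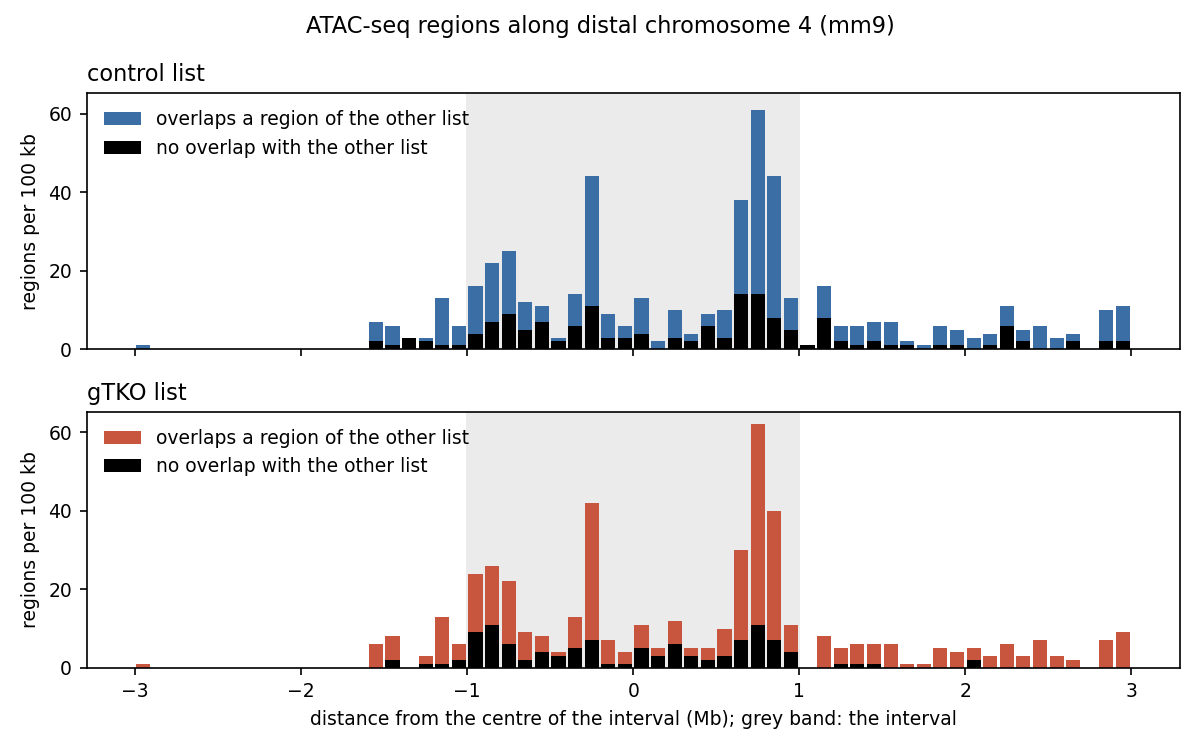
Regions per 100 kb bin against the distance of the bin from the centre of the interval (Mb), control list above and gTKO list below, with the part lacking a partner in the other list in black. Both lists peak in the same bins, up to 61 and 62 regions, and 6 of 20 interval bins (grey) in the control list and 7 of 20 in the gTKO list exceed the fullest flank bin, which holds 16 and 13 regions.

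Neighbouring regions lay close together. Between control regions the median gap was 838 bp (95% interval 622 to 974), and between gTKO regions it was 811 bp (608 to 1000). In the flanks the medians were 8503 bp (5870 to 12385) and 10401 bp (7317 to 14166), and over all placed chromosomes outside the interval 8625 and 10652 bp. Gaps under 1 kb made up 55.9% of 365 control gaps and 55.3% of 349 gTKO gaps, against 16.6% and 15.6% in the flanks. The longest stretch without a region of either list ran for 79.4 kb, from 145461495 to 145540917. Among 379 windows with at least 50 regions in each list, the median gap of the interval was the fourth smallest in the control list and the third smallest in the gTKO list. Among 793 windows with at least 20 regions in each list, a minimum added after the data were seen, 7 windows had a smaller median gap in either list.

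**Figure D2:**
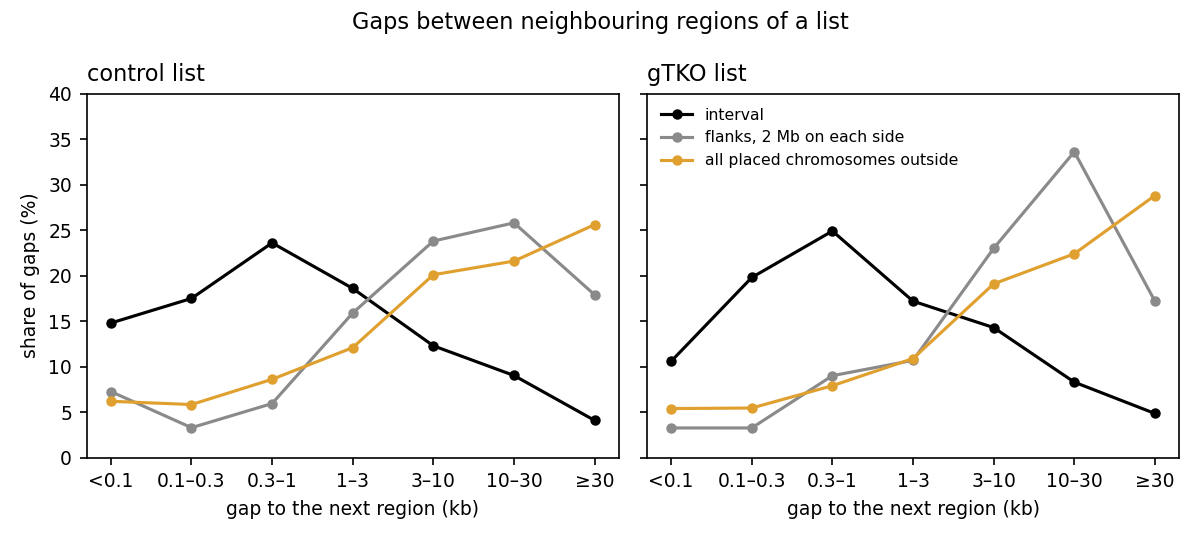
Share of gaps (%) by the size of the gap to the next region of the same list (kb), for the interval, its flanks and all placed chromosomes outside it. In the interval 23.6% of control and 24.9% of gTKO gaps fall between 0.3 and 1 kb, whereas outside the interval the largest share, 25.6% and 28.8%, has gaps of 30 kb or more.

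Regions no more than 3 kb apart, taken over both lists, formed 113 stretches, of which 67 held regions of both lists, 26 of the control list alone and 20 of the gTKO list alone. The 9 stretches with 20 or more regions held 361 of the 716 members. The fullest, from 146785356 to 146833054 (47.7 kb), held 36 control and 38 gTKO regions. It was followed by the stretch from 145731965 to 145769226 (37.3 kb), with 26 control and 23 gTKO regions. The stretch from 146719256 to 146744880 (25.6 kb) held 23 regions of each list. These stretches were matched more often than the remainder. Within the 9 stretches 42 control regions (22.2%) and 29 gTKO regions (16.9%) lacked a partner, and elsewhere in the interval 74 (41.8%) and 71 (39.9%) did. Over all placed chromosomes the shares were 27.0% and 9.75%. The 9 stretches thus lay below this share for control regions and above it for gTKO regions. Stretches were defined by density in both lists, so a region in one has more possible partners nearby.

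Regions of the interval were narrow. Control regions had a median width of 236 bp (95% interval 220 to 251) and gTKO regions 1 of 225 bp (214 to 253). In the flanks the medians were 344 and 360 bp, and over all placed chromosomes outside the interval 360 and 339 bp. Regions under 200 bp made up 37.2% of the control and 38.9% of the gTKO list, against 21.4% and 22.1% outside. In each list 19 regions had the smallest width, 150 bp. Among the 379 windows the median width of the interval was the third smallest in each list, and among the 793 windows 14 had a smaller one in either list. Broad regions were present as well, the widest spanning 3176 bp among control and 2190 bp among gTKO regions.

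The lists covered nearly equal sequence in the interval. The control list covered 120 kb and the gTKO list 112 kb, so gTKO coverage amounted to 93.3% of control coverage. This share was 74.6% in the flanks and 77.0% outside the interval, and 3 of the 379 windows, or 24 of the 793, had a higher one. The number of gTKO regions per control region, 0.956, was less unusual and ranked 57th (median window 0.874). The sequence common to both lists was 78.9 kb. It made up 65.9% of the control and 70.6% of the gTKO coverage, whereas outside the interval it made up 71.6% and 92.9%. Within the interval gTKO coverage was thus similar in amount to control coverage but less often at the same bases. The gTKO-only regions, by whose number the interval was chosen, made up 17.5% of its gTKO coverage, against 4.06% outside. They enter the 93.3%, the 0.956 and the 70.6%, so these values too are a description only.

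Regions without a partner were about as numerous in one list as in the other. A partner is a region of the other list that overlaps by at least 1 bp. In the interval 100 of 350 gTKO regions lacked one, 28.6% (95% interval 23.9 to 33.6%), while the share over all placed chromosomes was 9.75%. In the left flank it was 6 of 37, 16.2% (6.19 to 32.0%), which overlapped the 23.9 to 33.6% above, and in the right flank 5 of 87, 5.75% (1.89 to 12.9%), which did not. This is the value for which the interval was chosen. Of the control regions 116 of 366 lacked a partner, 31.7% (27.0 to 36.7%), while the share over all placed chromosomes was 27.0% and that in the flanks 28.1% (21.1 to 35.9%). The control-only share was thus near the background. Control-only regions were 1.16 times as numerous as gTKO-only regions in the interval, 1.67 times in the left flank (10 against 6), 6.60 times in the right flank (33 against 5) and 3.25 times outside the interval. From 145000001 to 146000000 and from 146000001 to 147000000 the values were alike, with gTKO-only shares of 30.8% (23.7 to 38.6%) and 26.7% (20.6 to 33.6%) and control-only shares of 35.2% (27.9 to 43.1%) and 28.9% (22.8 to 35.7%), whose intervals overlapped.

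The rank of the gTKO-only share depended on the minimum number of regions. It was the highest of the 379 windows with at least 50 regions in each list, the sixth highest of 503 with at least 40 and the 13th highest of 793 with at least 20. Windows with fewer regions and higher shares included those on chromosome 14 from 43000001 (62.7%, 32 of 51 gTKO regions), chromosome 7 from 45000001 (55.9%, 33 of 59) and chromosome 13 from 11000001 (48.9%, 22 of 45). Their control-only shares were 34.5%, 29.3% and 48.8%.

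**Figure D3:**
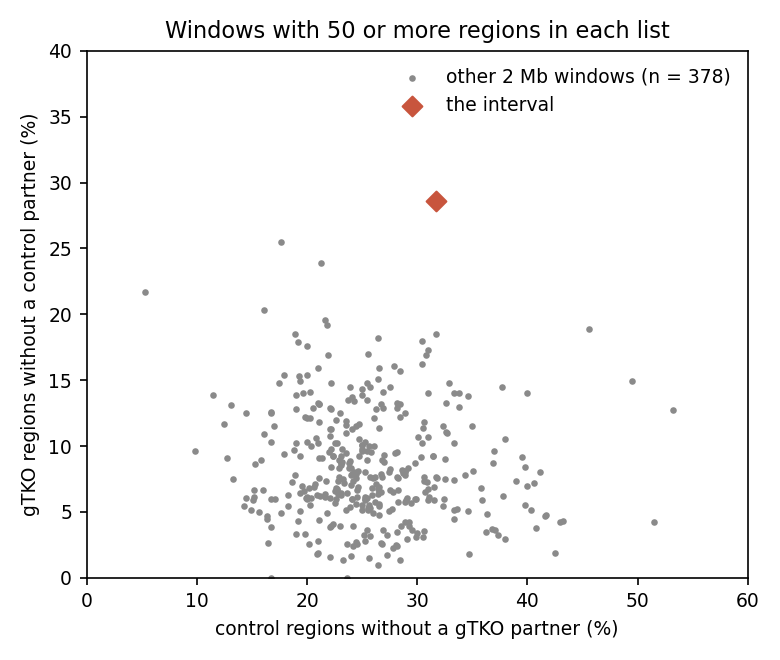
Share of gTKO regions without a control partner (%) against the share of control regions without a gTKO partner (%), for 2 Mb windows with at least 50 regions in each list. Among these windows the interval (diamond) has the highest gTKO-only share, 28.6% against 25.5% in the next, at a control-only share of 31.7%, which ranks 58th of 379. Windows with fewer regions, 12 of which have a higher gTKO-only share among those with at least 20 in each list, are not drawn.

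The shares were also compared within single width classes, an alternative added after the data were seen. Between 150 and 199 bp, 49.3% (40.6 to 58.0%) of 136 gTKO regions lacked a partner, against 25.9% (25.1 to 26.7%) outside the interval. Between 200 and 299 bp it was 28.7% (19.9 to 39.0%) of 94 against 13.3% (12.7 to 14.0%). In the control list the narrowest class differed in the other direction, with 52.2% (43.5 to 60.8%) of 136 regions lacking a partner against 66.5% (65.7 to 67.4%) outside. At 200 to 299 bp the control values, 31.5% (22.9 to 41.1%) and 38.5% (37.7 to 39.4%), had overlapping intervals. With the shares of the outside in each of 5 width classes, 51.0 gTKO-only and 148 control-only regions would be found, against 100 and 116 observed. The interval was chosen by the 100, so its excess over 51.0 is partly set by that choice and supports nothing. The density of the other list, which makes a partner more likely, was not matched in this comparison. At 500 to 999 bp 0 of 34 gTKO regions (up to 10.3% by the interval) and 1 of 33 control regions lacked a partner.

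**Figure D4:**
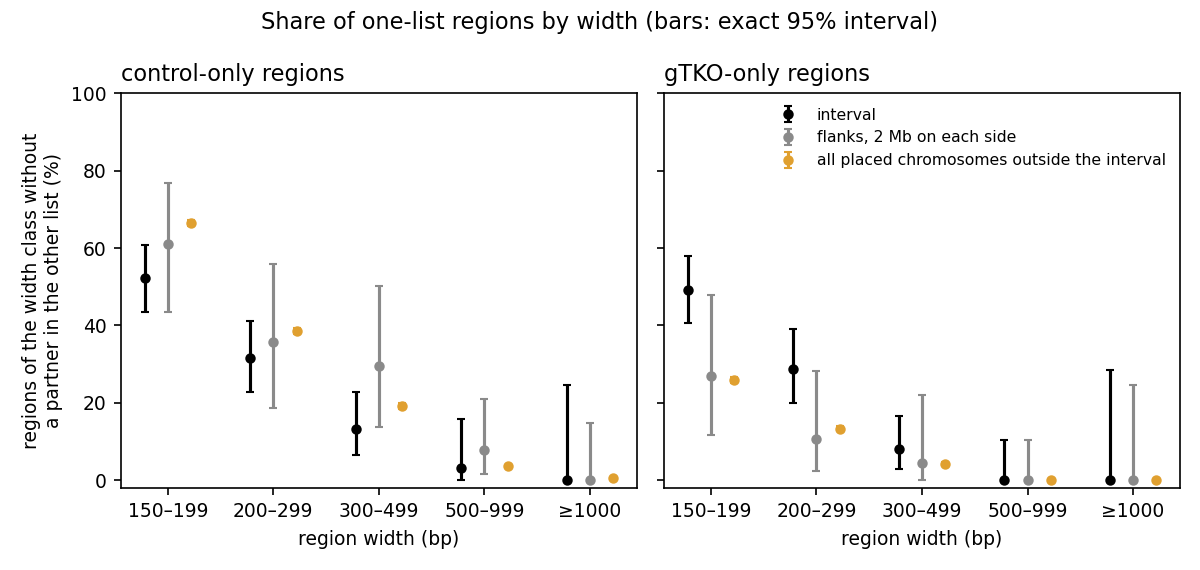
Share of regions without a partner in the other list (%) by region width (bp), control list on the left and gTKO list on the right, with exact 95% intervals. In the narrowest class the interval lies below the outside for control regions, 52.2% against 66.5%, and above it for gTKO regions, 49.3% against 25.9%.

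One-list regions lay close to regions of the other list. The median distance to the nearest was 795 bp for gTKO-only and 917 bp for control-only regions, against 6270 and 3796 bp outside the interval. The other list was also denser in the interval, which makes a nearby region more likely, and density was not matched in this paragraph. Within 500 bp of a region of the other list lay 41 of the 100 gTKO-only and 43 of the 116 control-only regions. When a region within 500 bp counted as a partner, the gTKO-only share was 16.9% (13.1 to 21.2%), against 8.14% outside the interval, and the control-only share 19.9% (16.0 to 24.4%), against 21.4%. The control-only share, above the outside by the first definition, was thus slightly below it by this one. Its 16.0 to 24.4% included the 21.4%, so it was not clearly apart from the outside. When both regions had to be covered by 50%, the shares were 46.9% and 49.2%, against 24.5% and 34.7% outside. Nearly all gTKO-only regions were narrow, with a largest width of 337 bp, while control-only regions reached 586 bp.

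The 5 widest gTKO-only regions were all within 2 kb of a control region. On chromosome 4 (mm9), the region from 145018290 to 145018626 (337 bp) lay 1649 bp from the nearest one. The region from 146021507 to 146021834 (328 bp) lay 966 bp away and that from 145709408 to 145709726 (319 bp) 531 bp away. Closest was the region from 145703726 to 145704037 (312 bp), at 88 bp, and the fifth, from 146736010 to 146736320 (311 bp), lay at 524 bp. The widest control-only region, from 146858169 to 146858754 (586 bp), was more isolated, 8849 bp from the nearest gTKO region. The others spanned 145264281 to 145264754 (474 bp), 146829546 to 146829973 (428 bp), 146622035 to 146622434 (400 bp) and 145960694 to 145961063 (370 bp), at distances of 597, 256, 23 and 5801 bp. Both classes thus held regions directly beside a region of the other list.

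gTKO-only regions occurred in all 20 bins of 100 kb and control-only regions in 19. Most gTKO-only regions, 11 each, were found in the bins that start at 145100001, with 26 gTKO and 22 control regions, and at 146700001, with 62 and 61. The bin that starts at 145000001 followed, with 9 gTKO-only regions of 24. Control-only regions were most frequent in the bins that start at 146600001 (14 of 38), 146700001 (14 of 61) and 145700001 (11 of 44). The bin from 146700001 to 146800000, the fullest in both lists, thus ranked high for both classes. In 7 bins gTKO-only regions outnumbered control-only regions, in 12 they were fewer, and in 1 the numbers were equal.

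Shared regions were about as often wider in one list as in the other. Among regions that overlapped exactly 1 region of the other list and were its only partner, the control region was the wider in 95 pairs, 54.6% (46.9 to 62.1%), while the share over all placed chromosomes was 79.5%. The gTKO region was wider in 78 pairs and 1 pair was equal. In the flanks the control region was wider in 77 of 101 pairs, 76.2% (66.7 to 84.1%), which did not overlap the 46.9 to 62.1% above. The median ratio of control to gTKO width was 1.03 (quartiles 0.850 and 1.34) in the interval, 1.14 in the flanks and 1.16 outside. gTKO regions exceeded their control partner by 25% or more in 34 pairs (19.5%), against 6.15% outside the interval, and control regions did so in 52 (29.9%), against 36.6%. By width of the gTKO region, the control region was less often the wider at 300 to 499 bp (36.5% of 52 pairs, 23.6 to 51.0%, against 70.4% outside, 69.4 to 71.3%). At 200 to 299 bp the values, 56.9% of 51 pairs (42.2 to 70.7%) and 71.2% outside (70.2 to 72.2%), had overlapping intervals. At 150 to 199 bp it was 77.2% (64.2 to 87.3%) of 57, against 84.1% (83.1 to 84.9%) outside, again with overlapping intervals. At 500 to 999 bp it was 1 of 11 pairs (0.230 to 41.3%), against 85.2% outside, and 3 pairs were wider still. The classes were formed by gTKO width, which is itself 1 of the widths compared.

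**Figure D5:**
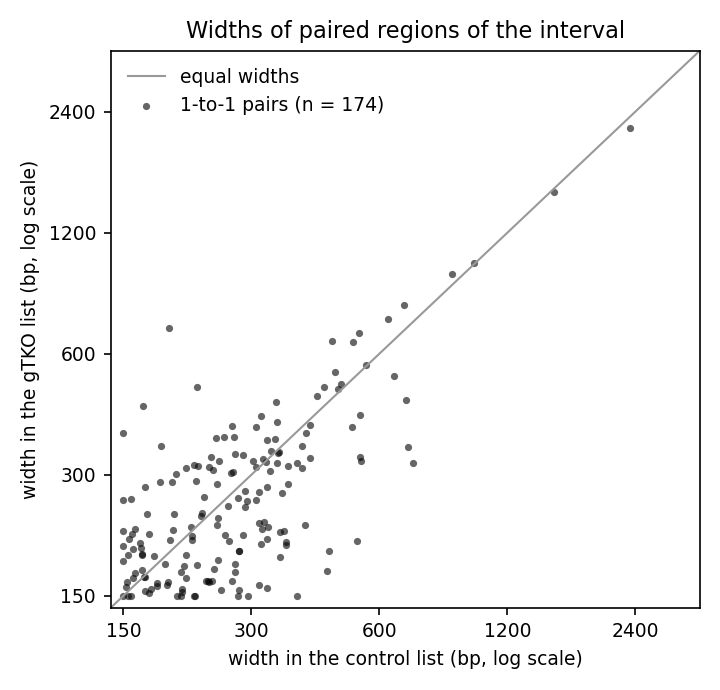
Width in the gTKO list against width in the control list (bp, log scales) for the regions of the interval paired 1 to 1, with a line of equal widths. The points scatter on both sides of the line, 95 with the wider region in the control list and 78 in the gTKO list.

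Paired regions also shared a smaller part of their extent. The 2 regions of a pair shared a median of 71.4% (67.9 to 75.3%) of their combined extent, against 81.9% (78.6 to 85.2%) in the flanks and 80.4% outside the interval. Their midpoints were a median of 34.2 bp apart (26.5 to 42.0), against 25.5 bp outside and 21.0 bp in the flanks (16.0 to 30.0, an overlapping range). Paired regions of the interval were narrower, with median widths of 267 bp (control) and 238 bp (gTKO), against 478 and 380 bp outside. A given shift takes a larger part of a narrow pair, and width was not matched here. In the interval 28 of 366 control regions overlapped several gTKO regions, and 33 of 350 gTKO regions overlapped several control regions. Outside the interval these numbers were 2993 of 56901 and 496 of 49208, and in the flanks 5 of 153 and 2 of 124. Splits thus ran mostly one way outside and both ways in the interval. Regions lay closer together in the interval, which makes several overlaps more likely, and density was not matched here.

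The widest shared regions were nearly as extensive in gTKO as in control. From 146793663 to 146796838 a control region of 3176 bp faced 2 gTKO regions of 3197 bp in all. That from 145739385 to 145741811 (2427 bp) overlapped 3 gTKO regions of 2233 bp, and the next region along the chromosome, from 145741860 to 145744018 (2159 bp), 3 of 2061 bp. A single gTKO region of 2190 bp matched the control region from 145712036 to 145714366 (2331 bp). From 146803604 to 146805482 a control region of 1879 bp faced 2 gTKO regions of 1857 bp. All 5 thus had gTKO partners within 200 bp of their own total width. Among the split regions, a control region of 1150 bp from 145023647 to 145024796 faced 3 gTKO regions of 1215 bp, from 145023191 to 145024686. The reverse was seen from 145715280 to 145716244, where a gTKO region of 965 bp overlapped 3 control regions of 913 bp. A gTKO region of 373 bp from 145036837 and 1 of 311 bp from 145151636 overlapped 2 control regions each, of 769 and 480 bp.

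The bounds of the interval did not cut through a region. Before the left bound, the last regions ended at 144999133 in the control list (431 bp) and at 144999068 in the gTKO list (406 bp), and overlapped each other. The first inside started at 145003067 in the control list (155 bp, no partner) and at 145006367 in the gTKO list (200 bp, partner of 150 bp). At the right bound, the last members ended at 146973195 in the control list (166 bp, with a partner) and at 146997611 in the gTKO list (264 bp, no partner). The first regions beyond it started at 147049014 in the control list (365 bp, no partner) and at 147120049 in the gTKO list (160 bp, with a partner). The left flank next to the bound still held regions, whereas on the right the first control region beyond the bound lay 51402 bp from the nearest gTKO region.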

How the data were processed

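The deposited files are 2 peak lists of 3 columns (sequence name, start and end), 1 per genotype, which the labels of all 3 libraries of that genotype name. Bowtie2, Picard, MACS2 and bedtools are among the tools, and mm9 the build, per the submitters' processing notes. Versions, calling threshold, treatment of reads with several alignments and pooling of libraries are not described in the labels. Starts were taken as counted from 0 and are printed from 1. The deposited values used here are positions, and read depth is unknown.

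Regions of chromosomes 1 to 19, X and Y were classified by overlap of at least 1 bp. Values in the interval were set beside the flanks, all placed chromosomes outside the interval, and windows of equal length. Shares have exact 95% Clopper-Pearson intervals, and medians have intervals from order statistics. The overlap code was checked on simulated data made from the control list. The named regions are the 5 widest of each class, the 3 most split per list, the 3 fullest bins per class and the regions at the bounds. Members, rules and lists were chosen with earlier results of these data known. Upstream sequences and gene order come from RefSeq (GRCm38.p6). RNA-seq libraries were not analysed here. Python 3.11.15, numpy 2.4.6, pandas 2.3.3, scipy 1.17.1 and matplotlib 3.10.9 were used.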

Additional observations from a re-analysis of the deposited data

How the results depend on the processing

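With 9 values computed under 11 alternatives, 19 of 43 recomputed values stayed within the 95% interval of the reported one and 24 left it. A change of direction could be read only for the density ratios and the pair widths, where 0 occurred. The control-only share was 31.7% against 27.0% outside the interval. With partners within 500 bp it was 19.9% (16.0 to 24.4%) against 21.4%, slightly below the outside but not clearly apart from it. The alternatives of the right flank alone and of all placed chromosomes were added after seeing the data, as were the width classes and the lower minimums of regions per window. The density ratios of 4.78 (control) and 5.65 (gTKO) became 2.74 and 3.4 with regions of at least 300 bp, 3.29 and 3.73 with regions joined within 500 bp, 3.85 and 4.49 with flanks of 1 Mb, 3.88 and 4.50 with flanks of 4 Mb, 3.21 and 4.02 against the right flank alone, and 8.48 and 9.38 against all placed chromosomes. The control-only and gTKO-only shares became 49.2% and 46.9% when 50% of both regions had to be covered, and 19.9% and 16.9% with partners within 500 bp. The median widths rose to 408 and 419 bp with regions of at least 300 bp and to 275 and 285 bp with joined regions, and the median gaps to 1782 and 1537 bp and to 2419 and 2384 bp, as these settings remove narrow regions or short gaps by construction. Moving the bounds outward by 250 kb, or taking the first or the last Mb alone, left each value computed under them within its interval. No paired analysis was possible because the 3 libraries of a genotype share 1 list. Leaving out a replicate was not run either, as the lists give no values per library. A stricter peak threshold was not run, since the lists hold no scores.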

Other observations

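Among 2 Mb windows with at least 50 regions in each list, 3 had a smaller median control gap than the interval. They were on chromosome 8 from 19000001 (287 bp, 57 control and 60 gTKO regions), chromosome X from 3000001 (468 bp, 69 and 55) and chromosome X from 91000001 (733 bp, 90 and 62). All 3 held far fewer regions than the interval. Their gTKO-only shares were 21.7%, 14.5% and 8.06%, and their control-only shares 5.26%, 37.7% and 41.1%. The windows on chromosome X thus held more control-only than gTKO-only regions (26 against 8 and 37 against 5). The same held outside the interval, where control-only regions were 3.25 times as numerous. In the window on chromosome 8 gTKO-only regions were the more numerous (13 against 3). In the order given, gTKO coverage was 109%, 76.1% and 64.5% of control coverage. By gTKO-only share the next windows with at least 50 regions in each list were on chromosome 4 from 3000001 (25.5%, 14 of 55) and on chromosome 3 from 27000001 (23.9%, 16 of 67), where the median control gaps were 5660 and 8234 bp. Some windows with fewer regions also joined narrow regions to a high gTKO-only share. Over all placed chromosomes the control-only share was 27.0% and the gTKO-only share 9.75%. The window on chromosome 7 from 45000001 (41 control and 59 gTKO regions) had one-list shares of 29.3% and 55.9%, median widths of 234 and 246 bp and median gaps of 1225 and 752 bp. The window on chromosome 13 from 11000001 (41 and 45) had shares of 48.8% and 48.9%, widths of 194 and 215 bp and gaps of 5968 and 5064 bp.

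Contigs assigned to chromosome 4 without a position held 19 control and 17 gTKO regions, with medians of 239 and 228 bp. Of these, 8 of the 19 control and 4 of the 17 gTKO regions lacked a partner. The shares over all placed chromosomes were 27.0% and 9.75%, and the counts on these contigs are too small for a comparison. Distances between the starts of any 2 regions of the interval were counted from 1 to 60 kb in classes of 100 bp. The fullest class held 32 of 6157 control distances (3300 to 3400 bp) and 33 of 5647 gTKO distances (3500 to 3600 bp), against class medians of 10 and 9. These medians were taken over short and long distances alike, so whether a spacing recurs cannot be read from them.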
